A study of Mus musculus with 10 samples.

Results

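Cultures R1_ESC_rep1 and R1_ESC_rep2 of the mouse embryonic stem cell (ESC) line R1 carry the same label and were grown in the same medium, and their RNA-seq profiles are set against each other here, gene by gene. Genes entered when they reached 5 FPKM (fragments per kilobase of transcript, scaled to the mapped fragments of the library) in either replicate, which kept 9149 of the 22867 genes in the deposited tables. The 2 libraries are part of a series of 10 on the transcription factor Otx2 and the passage from ESC to epiblast-like cells (EpiLC). The labels call the ESC cultures independent biological replicates and name no difference between them. They give the 129SV strain for all 10 libraries.

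All ESC groups share a serum-free N2B27 medium with PD0325901 at 0.8 µM, CHIR99021 at 3.3 µM and LIF, in which they were kept for at least 5 passages. Replicates 1 and 2 are wild-type R1 ESC. E14 ESC are a second wild-type line with 1 library, and Otx2-/- ESC, which lack Otx2, have 1 library too. Otx2-/- ESC that carry a doxycycline-inducible Otx2 (tetON-Otx2), kept without doxycycline, served as a further reference in some counts. Otx2 read 45.8 FPKM in that library, against 5.72 FPKM in R1 replicate 1, 9.09 in replicate 2, 3.96 in E14 ESC and 7.85 in Otx2-/- ESC, so these cells were not an Otx2-free reference and stayed out of the main comparisons. Transcript left in a deleted line can come from outside the deleted part, so the Otx2 value in Otx2-/- ESC checks nothing about its genotype. E14 and Otx2-/- EpiLC, 1 library each, were made from the ESC over 48 h with bFGF and knockout serum replacement (KOSR), and their labels name no activin A. The 2 R1 EpiLC libraries were made in the same way over 48 h, 1 with activin A at 20 ng/ml and 1 without. Otx2-/- tetON-Otx2 ESC with doxycycline, 1 library with Otx2 at 1059 FPKM, enter where all 10 libraries are compared.

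PD0325901 blocks MEK and with it ERK signalling, and CHIR99021 blocks GSK3, which stabilises beta-catenin and switches on Wnt target genes. Together with LIF, which acts through Stat3, these inhibitors hold mouse ESC in the naive state of the pre-implantation epiblast. The hypoxia response runs through the HIF factors: prolyl hydroxylases mark HIF alpha subunits for destruction by Vhl when oxygen is present, and in low oxygen HIF drives glucose uptake, glycolysis, angiogenic factors and its own hydroxylases. Germline and meiosis genes such as Dazl and Stra8 are held down by promoter methylation in most cells and are partly transcribed in naive ESC, whose DNA is poorly methylated.

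Ratios are differences of log2(FPKM + 1), replicate 1 minus replicate 2, so a positive value is higher in replicate 1, and changes of low genes are understated. With 1 library on each side no test is possible, and every difference is a difference between these libraries. The median ratio over all 9149 genes was 0.22. FPKM relate each gene to the rest of its library, so list medians are also given relative to that value. Approximate depth, in units of 1 M (mega) fragments, was 11.5 M in replicate 1, 20.2 M in replicate 2, 11.5 M in E14 ESC and 21.0 M in Otx2-/- ESC, read from the smallest values of olfactory receptor genes. A transcript of 2 kb at 5 FPKM then rests on about 115 fragments in replicate 1 and 202 in replicate 2. Small RNA genes, taken by name or by a locus under 200 bases, held 9.25% of all FPKM in replicate 1, 14.8% in replicate 2, 17.8% in E14 ESC and 16.1% in Otx2-/- ESC. Values of such short transcripts are unreliable in FPKM, and many counts below leave out 221 of them and 22 genes listed at exactly 0 in 1 replicate although their median over the 10 libraries reached 5 FPKM.

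Both replicates read as naive ESC by their markers. Zfp42 stood at 456 FPKM in replicate 1 and 430 in replicate 2, with 502 in E14 ESC and 450 in Otx2-/- ESC. Esrrb, an orphan nuclear receptor of the naive network, stood at 217, 194, 214 and 214 FPKM in the same order. Of the 14 fibroblast and feeder markers 5 were listed at 0 in both replicates and 10 were under 1 FPKM in both. Vim and Timp1 were the only ones of the 14 to reach 5 FPKM, and the defining genes Col3a1, Postn and Lum were at 0. The summed level of the 14 was 361 FPKM in replicate 1, 211 in replicate 2, 288 in E14 ESC and 305 in Otx2-/- ESC. Primitive streak markers summed to 16.0 FPKM in replicate 1, 9.10 in replicate 2, 5.87 in E14 ESC and 6.11 in Otx2-/- ESC, and Eomes alone of them passed 5 FPKM.

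The replicates differed in many genes. Of the 9149 genes 557 were at least 2-fold higher in replicate 1 (6.09%) and 496 at least 2-fold higher in replicate 2 (5.42%), 11.5% in all. Without small RNAs and genes listed at 0, 489 of 8906 genes (5.49%) were higher in replicate 1 and 394 (4.42%) in replicate 2, 883 in all (9.91%). Past 4-fold these counts were 31 and 52, and past 8-fold 8 and 11. The balance of directions rests on how the libraries are scaled. As deposited, 52.9% of the 2-fold differences were higher in replicate 1. That share was 26.1% after median-ratio scaling (272 genes against 770), 38.4% after quantile normalisation (341 against 548) and 32.2% with each library rescaled to the same sum of FPKM (406 against 854). These scalings moved the median of all genes from 0.22 to -0.034, 0.046 and 0.036, so a gene near a ratio of 0.22 is near the middle of the genes as deposited. At the edge of the gene filter, Zfp27 just entered with 5.00 FPKM in replicate 1 and 2.15 in replicate 2, and Galnt6 just missed it with 1.39 and 4.99 FPKM.

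**Figure D1:**
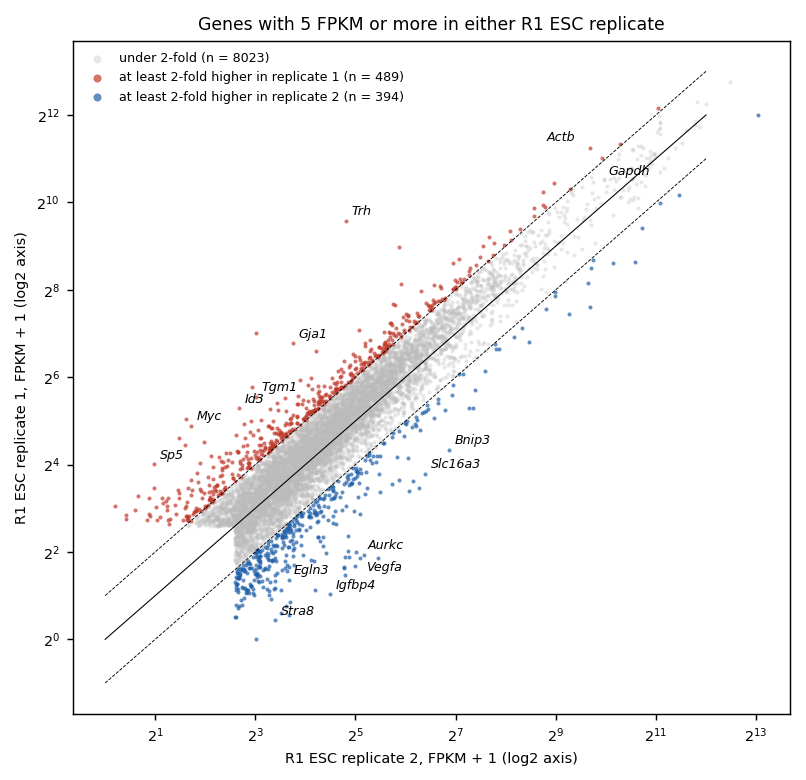
FPKM + 1 of 8906 genes in R1 ESC replicate 2 (x axis) and replicate 1 (y axis), both on log2 axes, without small RNAs and genes listed at 0. Each point is a gene, the solid line marks equal values and the dashed lines a 2-fold difference. The 489 red genes and 394 blue genes lie beyond 2-fold, with Trh and Myc far above the diagonal and Vegfa, Igfbp4 and Stra8 far below it.

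Other ESC libraries show which replicate lies apart. Under the same rule, replicate 1 differed by at least 2-fold from replicate 2 in 883 genes (9.91%), from E14 ESC in 528 (6%) and from Otx2-/- ESC in 666 (7.54%). Replicate 2 differed from E14 ESC in 68 genes (0.783%) and from Otx2-/- ESC in 102 (1.17%), although E14 is another line and the other carries a deletion. E14 ESC and Otx2-/- ESC differed in 56 (0.650%). These counts share libraries and are not independent. Among the 4 ESC libraries, replicate 1 lay at least 2-fold above all of the others in 176 genes and at least 2-fold below all of them in 206. The same position was held by replicate 2 in 19 genes, by E14 ESC in 5 and by Otx2-/- ESC in 28, both directions together. The library that lies apart by 2-fold is thus mostly replicate 1. E14 ESC, with about the same approximate depth as replicate 1, was apart in the fewest genes. The part of depth or of other library properties in these counts was not tested.

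For the 883 genes past 2-fold, E14 ESC and Otx2-/- ESC were used as references that had no share in choosing them. Both were nearer replicate 2 in 740 genes (83.8%), both nearer replicate 1 in 49 (5.55%), and they split in 94. Split by direction, 85.3% of the genes higher in replicate 1 and 82.0% of those higher in replicate 2 had both references nearer replicate 2. On the log2 scale the median gene had its references 0.20 of the way from replicate 2 to replicate 1 in either direction. With all 1053 genes, small RNAs included, the share with both references nearer replicate 2 was 77.9%, and with the tetON cells as a further reference it was 68.0%, since 3 libraries must then fall on 1 side.

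Median ratios varied little with transcript properties and position in the genome. Median ratios over chromosomes lay 0.14 apart at most. Over 5 classes of transcript GC content the medians ran from 0.19 to 0.24, and over 5 classes of transcript length from 0.13 in the shortest to 0.24 in the longest, for the 90.7% of genes with a value. Differences past 2-fold, in contrast, were most frequent among the shortest transcripts. In the shortest class 152 of 1661 genes were past 2-fold towards replicate 1 and 193 towards replicate 2, against 75 and 49 of 1658 in the longest, small RNAs included.

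Most hypoxia response genes were lower in replicate 1. Of 28 genes listed, 21 reached 5 FPKM in either replicate, 14 in both and 7 in replicate 2 alone, and those 7 could enter only by being higher there. Genes were therefore also taken by their level in E14 or Otx2-/- ESC alone, which uses neither replicate. Of the 21 hypoxia genes taken so, 13 were at least 2-fold higher in replicate 2 and 0 in replicate 1, where 4.87% and 5.21% of all 8875 genes taken so were. Their median ratio was -1.21, against 0.19 for those 8875 genes. In bulk RNA, fewer cells expressing a gene and less RNA per cell cannot be told apart.

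The 6 members with the largest ratios were all lower in replicate 1. Vegfa, the angiogenic growth factor, read 2.22 FPKM in replicate 1 against 30.9 in replicate 2, 24.1 in E14 ESC and 21.9 in Otx2-/- ESC, a ratio of -3.31. Egln3, a HIF prolyl hydroxylase that is itself induced by HIF, read 2.15 FPKM in replicate 1 against 26.3, 13.9 and 10.4 in the same other libraries (ratio -3.12). Bnip3, a mitophagy receptor, read 19.21 FPKM in replicate 1 against 116, 115 and 108 (ratio -2.53). In each of these genes replicate 1 lay far below the 3 others, which were close together in Vegfa and Bnip3 and more spread in Egln3. Bhlhe40, a transcriptional repressor of the clock family, read 3.02 FPKM in replicate 1 against 31.0, 18.5 and 14.1 (ratio -3.0). Stc2, a secreted glycoprotein, read 1.10 FPKM against 6.77, 5.35 and 4.49 (ratio -1.89). P4ha1, the catalytic subunit of collagen prolyl hydroxylase, read 6.02 FPKM against 22.4, 20.5 and 20.3 (ratio -1.74). Replicate 1 was the lowest of the 4 libraries in these genes as well.

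Ndufa4l2, a HIF-induced protein of the mitochondrial respiratory chain that the list did not hold, was among the 12 genes furthest towards replicate 2, with 1.78 FPKM in replicate 1 against 26.8, 19.4 and 13.4 (ratio -3.32). Some hypoxia genes were level as deposited, although 20 of the 21 had ratios below the all-gene median of 0.22. Narf was level at 7.89 FPKM in replicate 1 against 8.15, 8.75 and 9.96 (ratio -0.04). Mxi1, a Myc antagonist, read 7.64 FPKM against 8.37, 7.77 and 5.41 (ratio -0.12). Fam162a read 98.3 FPKM against 109, 103 and 107 (ratio -0.14). Kdm3a, an oxygen-dependent histone demethylase, was the 1 member of the 21 above all of the other 3 ESC libraries, with 77.2 FPKM against 59.2, 67.8 and 68.2. Replicate 1 was below all of the other 3 in 17 of the 21, where 27.4% of the 9149 genes were. It was the lowest of all 10 libraries, EpiLC included, in 13 of 21, where 12.2% of the 8875 genes were.

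Summed over the 28 listed genes, the level was 358 FPKM in replicate 1, 720 in replicate 2, 655 in E14 ESC and 642 in Otx2-/- ESC. The lowest of the other 9 libraries, Otx2-/- tetON-Otx2 ESC with doxycycline, had 550 FPKM. Relative to all genes the list median stood at -1.43, and it stayed between -1.61 and -1.07 over the alternative scalings, pseudocounts and filters. Among the 3 pairs formed by replicate 2, E14 ESC and Otx2-/- ESC, the same median was a root mean square of 0.087 from all genes. The distance of replicate 1 was thus far outside the spread among the other ESC libraries, though with no replicate of its own.

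**Figure D2:**
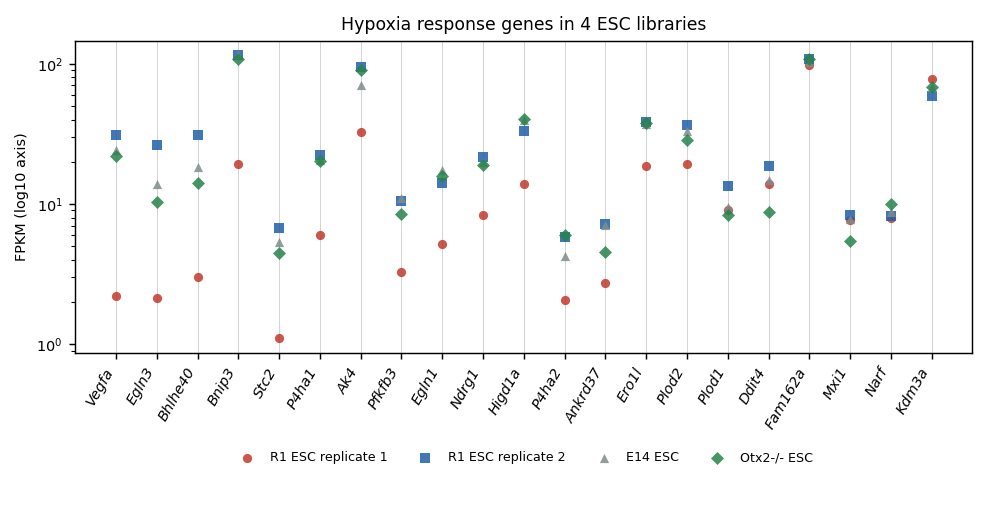
FPKM (log10 axis) of the 21 hypoxia response genes with 5 FPKM in either R1 ESC replicate, in R1 ESC replicate 1, R1 ESC replicate 2, E14 ESC and Otx2-/- ESC, 1 point per library, ordered by ratio. On the left, Vegfa, Egln3, Bhlhe40 and Bnip3 have replicate 1 alone at the bottom, and on the right Narf and Mxi1 have all of the points close together.

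The genes listed as oxygen-sensing machinery did not share this difference. That list does not hold the hydroxylase Egln3, which was counted with the hypoxia response and had a ratio of -3.12. The median ratio of the machinery list was 0.23, with 0 of 7 past 2-fold. It followed all genes to between -0.038 and 0.074 under the 3 other scalings. Hif1a, the regulated HIF subunit, read 49.9 FPKM in replicate 1 against 29.7, 28.7 and 30.6 (ratio 0.73). Egln2, a hydroxylase not known as a HIF target, read 39.0 FPKM against 23.7, 33.9 and 28 (ratio 0.69). Vhl, which marks hydroxylated HIF for destruction, read 8.51 FPKM against 11.3 in each of the 3 others (ratio -0.37). HIF is regulated mainly at the protein level, which RNA does not show. Oxygen in the incubators is not given in the sources used here.

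The HIF core motif is shown in 3 promoters because their genes were among the furthest apart in the hypoxia and glycolysis lists. The motif was searched as ACGTG or GCGTG on both strands. ACGTG is contained in the E-box CACGTG, so the searches overlap. The 250 bases before the annotated start are printed 5′ to 3′ on the gene's strand, from RefSeq on GRCm38.p6, with matches in capitals (on the other strand they read CACGT or CACGC). Bnip3 lies at chr7:138909507-138909756 on the minus strand, Egln3 at chr12:54203875-54204124 on the minus strand and Slc16a3 at chr11:120948817-120949066 on the plus strand.
Bnip3: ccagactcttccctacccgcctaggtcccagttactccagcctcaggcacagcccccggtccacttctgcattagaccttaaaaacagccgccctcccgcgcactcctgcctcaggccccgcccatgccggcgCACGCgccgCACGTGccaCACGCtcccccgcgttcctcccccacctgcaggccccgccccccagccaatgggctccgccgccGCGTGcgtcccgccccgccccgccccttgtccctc
Egln3: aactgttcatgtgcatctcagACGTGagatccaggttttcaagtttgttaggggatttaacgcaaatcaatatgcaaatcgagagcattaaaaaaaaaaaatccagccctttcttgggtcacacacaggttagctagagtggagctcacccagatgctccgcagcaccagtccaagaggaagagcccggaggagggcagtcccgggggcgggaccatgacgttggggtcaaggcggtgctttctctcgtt
Slc16a3: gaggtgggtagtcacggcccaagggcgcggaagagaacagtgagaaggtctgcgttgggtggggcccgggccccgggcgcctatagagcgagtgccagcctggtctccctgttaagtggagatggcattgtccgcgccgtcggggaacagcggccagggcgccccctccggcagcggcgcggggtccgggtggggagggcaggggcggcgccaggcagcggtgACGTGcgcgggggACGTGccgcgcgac
Windows of 300 bases, 250 before to 50 after the start, were counted for all RefSeq starts. A match occurred in 43.8% of all 32851 windows, in 65.2% of those of the genes with 5 FPKM, in 66.4% of those higher in replicate 1 and in 64.3% of those higher in replicate 2. It occurred in 22 of 26 windows of 17 hypoxia genes (84.6%) and in 78.1% of windows of glycolysis genes. ACGTG alone was in 19.6% of all windows, in 27.2% of those of the genes with 5 FPKM and in 57.7% of the hypoxia windows. The first RefSeq window of Vegfa held no match in its upstream 250 bases, which says only that these letters are not in that window, and its second window held 2. The motif was thus no more frequent before genes higher in replicate 2 than before genes higher in replicate 1.

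Many glycolysis genes were lower in replicate 1, by a smaller margin, with Slc16a3 furthest apart. All 23 listed genes reached 5 FPKM, 22 of them in both replicates. Their median ratio was -0.44, which is -0.66 relative to all genes, with a root mean square of 0.12 among the other 3 pairs of ESC libraries. At least 2-fold higher in replicate 2 were 5 of the 23 and in replicate 1 only Gapdh, where 5.42% and 6.09% of all 9149 genes were. Under median-ratio, quantile and sum scaling these counts were 7, 8 and 6 towards replicate 2 and 0 towards replicate 1. Slc16a3, the lactate exporter Mct4, read 12.8 FPKM in replicate 1 against 83.2 in replicate 2, 104 in E14 ESC and 78.0 in Otx2-/- ESC (ratio -2.60). Slc2a3, the glucose transporter Glut3, read 230 FPKM against 502, 451 and 455 (ratio -1.12). Aldoc, an aldolase isozyme, read 12.5 FPKM against 28, 19.7 and 19.18 (ratio -1.10). The other transporters of the list, added after their values were seen, differed less. Slc2a1, the glucose transporter Glut1, read 96.9 FPKM against 194, 198 and 169 (ratio -0.99), and Slc16a1, the lactate transporter Mct1, read 28.2 FPKM against 33.1, 44.9 and 40.3 (ratio -0.23). Hk1, a hexokinase, read 16.2 FPKM against 35.7, 36.3 and 39.0 (ratio -1.09), and Pfkl, a phosphofructokinase, read 66.1 FPKM against 134, 169 and 133 (ratio -1.01).

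The abundant core enzymes Eno1, Ldhb and Pkm2 were level as deposited. Of the 23 glycolysis genes, 19 had ratios below the all-gene median of 0.22. Eno1 read 544 FPKM in replicate 1 against 531, 610 and 552 (ratio 0.04). Pkm2, the pyruvate kinase of proliferating cells, read 1788 FPKM against 1852, 2083 and 1861 (ratio -0.05). Gapdh went the other way, with 2060 FPKM against 966, 1111 and 925 (ratio 1.09). Gapdh has many processed copies in the genome that could share its fragments, so its value is uncertain. Replicate 1 was below all of the other 3 ESC libraries in 15 of the 23 genes and above them in 5. Of all 9149 genes it was below them in 27.4% and above them in 55.0%. The 24 genes of mitochondrial respiration had a median ratio of 0.24, with 0 past 2-fold, and stood near all genes. Under median-ratio scaling and quantile normalisation their median turned to -0.011 and -0.089, with all genes at -0.034 and 0.046.

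Some Wnt target genes were far higher in replicate 1 and others were level. Of 20 listed, 10 reached 5 FPKM, 7 in both replicates and 3 in replicate 1 alone. Of the 8 genes with 5 FPKM in E14 or Otx2-/- ESC, 3 were at least 2-fold higher in replicate 1 and 0 in replicate 2, with a median ratio of 0.80, where 5.21% and 4.87% of all 8875 genes taken so were. Myc, the growth-promoting transcription factor, read 28.7 FPKM in replicate 1 against 2.29 in replicate 2, 7.17 in E14 ESC and 4.02 in Otx2-/- ESC (ratio 3.17). Sp5, a direct target of beta-catenin, read 15.1 FPKM against 0.976, 3.15 and 1.53 (ratio 3.03). Axin2, the negative-feedback scaffold of the pathway, read 23.5 FPKM against 5.89, 6.96 and 7.56 (ratio 1.83). Replicate 1 was well above the other 3 in each. Ccnd1, cyclin D1, read 54.6 FPKM against 19.8, 25.4 and 22.5 (ratio 1.42). Notum, a secreted inhibitor of Wnt ligands, read 33.6 FPKM against 18.1, 28 and 26.8 (ratio 0.85), and Cdx1 read 24.0 FPKM against 13.9, 22.2 and 15.1 (ratio 0.74). In Notum and Cdx1, E14 ESC came close to replicate 1.

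Tcf7 and Lef1, nuclear partners of beta-catenin, and Tnfrsf19 differed little between the replicates, though Lef1 was lower in E14 and Otx2-/- ESC. Tcf7 read 23.0 FPKM in replicate 1 against 21.5, 20.3 and 18.6 (ratio 0.09). Lef1 read 8.78 FPKM against 7.29, 5.56 and 4.06 (ratio 0.24), and Tnfrsf19 read 6.66 FPKM against 6.24, 8 and 5.32 (ratio 0.08). Among the 10 targets under the minimum, picked out after their values were seen, Cdx2 read 2.55 FPKM against 0.215, 0.219 and 0.171. T, the mesoderm factor brachyury, read 2.61 FPKM against 0.600, 0.681 and 0.604. Those levels are low, and Lgr5 at 0.0721 FPKM against 0.190, 0.332 and 0.191 went the other way. Relative to all genes the Wnt list median was 0.58, between 0.40 and 1.15 over the alternatives, with a root mean square of 0.33 among the other 3 pairs of ESC libraries. Wnt targets thus also varied among the other ESC libraries.

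Sp5 is shown because it had the largest ratio after Myc in the list and its window holds the TCF/LEF motif, searched on both strands as CTTTG followed by a pair of bases that are each A or T. The 250 bases before its RefSeq start on GRCm38.p6 lie at chr2:70474673-70474922 on the plus strand, with matches in capitals.
Sp5: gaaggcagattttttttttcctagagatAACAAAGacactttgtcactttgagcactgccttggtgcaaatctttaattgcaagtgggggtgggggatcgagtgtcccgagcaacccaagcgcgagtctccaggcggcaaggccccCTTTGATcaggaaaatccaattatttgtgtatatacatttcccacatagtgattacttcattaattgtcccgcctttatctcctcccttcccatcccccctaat
A match occurred in 16.9% of all 32851 windows and in 11.1% of those of the genes with 5 FPKM. It occurred in 14.6% of windows of genes higher in replicate 1 and in 10.7% of those higher in replicate 2. Of 10 windows of 5 Wnt target genes 3 held a match. The Axin2 window held none in its upstream 250 bases.

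ERK pathway targets, many of them feedback inhibitors that report ERK activity, were split. All 11 that passed reached 5 FPKM in both replicates, and 5 of the 11 were at least 2-fold higher in replicate 1 and 0 in replicate 2, where 6.09% and 5.42% of all 9149 genes were. Spry4 read 31.5 FPKM in replicate 1 against 7.6 in replicate 2, 8.57 in E14 ESC and 6.05 in Otx2-/- ESC (ratio 1.92). Dusp6, the ERK phosphatase, read 28.6 FPKM against 8.66, 10.3 and 8.53 (ratio 1.61). Spry2 read 91.7 FPKM against 29.9, 36.4 and 30.9 (ratio 1.58). In these feedback genes the other 3 libraries lay close together and replicate 1 stood alone above them. Il17rd, the FGF antagonist Sef, read 17.3 FPKM against 6.06, 7.57 and 6.99 (ratio 1.37). Etv1 read 14.4 FPKM against 6.25, 14.3 and 13.2 (ratio 1.09), where replicate 2 was the library apart. Etv5, an ETS factor downstream of FGF, was level at 170 FPKM against 161, 165 and 150 (ratio 0.08). Spry1 read 5.20 FPKM against 5.91, 5.43 and 4.19 (ratio -0.16). Ier3 read 7.09 FPKM against 11, 10.4 and 6.50 (ratio -0.57). The list median was 0.34 relative to all genes, with a root mean square of 0.14 among the other 3 pairs.

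Immediate early genes went both ways. Junb, an AP-1 subunit, read 10.3 FPKM in replicate 1 against 3.52, 5.60 and 3.76 (ratio 1.32), and Ier2 read 102 FPKM against 47.6, 68.3 and 48.0 (ratio 1.08). Maff, a small Maf factor, read 1.11 FPKM against 6.14, 3.86 and 3.20 (ratio -1.76). Klf10 read 35.1 FPKM against 61.5, 40.4 and 40.2 (ratio -0.79). Of the 8 genes with 5 FPKM, 2 were past 2-fold towards replicate 1 and 1 towards replicate 2. Of all 9149 genes 6.09% and 5.42% were. Maff reached 5 FPKM in replicate 2 alone. Taken by their level in E14 or Otx2-/- ESC, 7 genes entered, 2 past 2-fold towards replicate 1 and 0 towards replicate 2.

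BMP targets and ligands had 5 genes above the minimum. Id3, an inhibitor of bHLH factors, read 38.2 FPKM in replicate 1 against 5.42 in replicate 2, 16.6 in E14 ESC and 10.1 in Otx2-/- ESC (ratio 2.61). Bmp4, a ligand, read 36.8 FPKM against 9.99, 13.3 and 8.38 (ratio 1.78). Id1 read 12.9 FPKM against 7.71, 13.0 and 9.26 (ratio 0.68), so replicate 1 and E14 ESC were level. Smad7, the inhibitory Smad, read 25 FPKM against 23.0, 29.1 and 21.9 (ratio 0.12). The list median of 0.47 relative to all genes was no larger than the root mean square of 0.49 among the other 3 pairs of ESC libraries, so BMP targets as a list did not set replicate 1 apart.

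**Figure D3:**
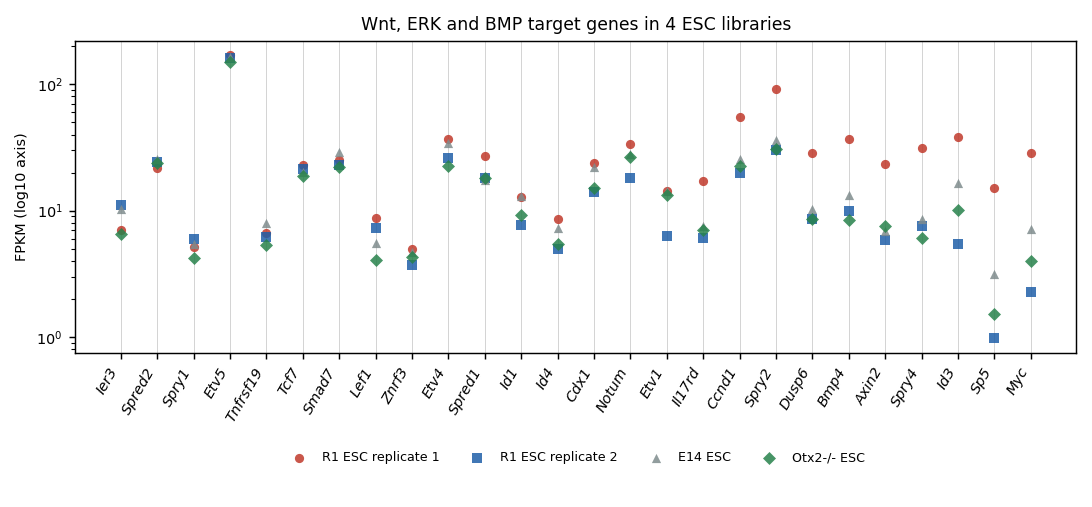
FPKM (log10 axis) of the 26 Wnt, ERK and BMP target genes with 5 FPKM in either R1 ESC replicate, in 4 ESC libraries, 1 point per library, ordered by ratio. Replicate 1 lies alone at the top in Myc, Sp5, Spry4, Axin2, Dusp6 and Spry2, and all of the points lie together in Etv5, Spred2 and Tcf7.

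Nodal and Activin genes stayed near all genes as a list (median ratio 0.26) with members at both ends. Lefty2, a Nodal inhibitor, read 43.6 FPKM in replicate 1 against 14.5, 26.5 and 24.0 (ratio 1.53). Tdgf1, the Nodal co-receptor Cripto, read 285 FPKM against 796, 695 and 650 (ratio -1.48). Nodal read 27.0 FPKM against 41.9, 51.8 and 42.9 (ratio -0.62). The ligand and its co-receptor were thus lower in replicate 1 than in the other 3, and Lefty2 higher. Lefty1, the other feedback inhibitor, read 26.6 FPKM against 17.7, 28.3 and 31.7 (ratio 0.56), below E14 and Otx2-/- ESC. LIF and Stat3 targets had a median ratio of 0.27, with 1 of 12 past 2-fold, Gbx2, an epiblast homeobox factor with 26.6 FPKM against 7.31, 12.0 and 9.57 (ratio 1.73). Socs3, the feedback inhibitor most used as a Stat3 readout, read 35.4 FPKM against 28.9, 46.2 and 38.6 (ratio 0.28).

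Actin and other targets of YAP and SRF, which respond to cell shape and serum signals, were higher in replicate 1 in part. Ctgf, a matricellular YAP target, read 18.7 FPKM in replicate 1 against 5.18 in replicate 2, 9.95 in E14 ESC and 8.25 in Otx2-/- ESC (ratio 1.67). Actb, beta-actin, read 2431 FPKM against 818, 1265 and 1098 (ratio 1.57), and Actg1 read 1387 FPKM against 502, 593 and 694 (ratio 1.46). Both common reference genes, Actb and Gapdh, were thus more than 2-fold higher in replicate 1 as deposited. Under the 3 other scalings their ratios stayed positive, 1.32 to 1.41 for Actb and 0.84 to 0.93 for Gapdh, which puts Gapdh under 2-fold. Processed copies of actin genes make these values uncertain too. Tpm1, a tropomyosin, was level at 32.8 FPKM against 31.6, 34.3 and 30.0 (ratio 0.05), and Cnn3 at 260 FPKM against 285, 295 and 282 (ratio -0.13). Of the 12 genes with 5 FPKM, 11 in both replicates and 1 in replicate 1 alone, 3 were past 2-fold, all towards replicate 1. Of all 9149 genes 6.09% were past 2-fold towards replicate 1 and 5.42% towards replicate 2. Taken by their level in E14 or Otx2-/- ESC, 12 genes entered, 3 past 2-fold towards replicate 1 and 0 towards replicate 2. The list median was 0.40 relative to all genes, against a root mean square of 0.12 among the other 3 pairs.

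Germline and meiosis genes included some of the largest differences towards replicate 2. Of 44 listed, 17 reached 5 FPKM, 5 in both replicates and 12 in replicate 2 alone, so the minimum itself selected for replicate 2. Taken by their level in E14 or Otx2-/- ESC, 15 genes entered, 9 of them at least 2-fold higher in replicate 2 and 1 in replicate 1, where 4.87% and 5.21% of all genes taken so were. Their median ratio was -1.27. Stra8, the retinoic acid target that opens meiosis, read 0.354 FPKM in replicate 1 against 9.51 in replicate 2, 8.25 in E14 ESC and 10.8 in Otx2-/- ESC (ratio -2.96). Dazl, a germ cell RNA-binding protein, read 2.14 FPKM against 11.7, 6.53 and 5.51 (ratio -2.01). Hormad1, a protein of the meiotic chromosome axis, read 1.30 FPKM against 7.91, 7.72 and 5.31 (ratio -1.95). Replicate 1 was the lowest of the 4 in each. Sohlh2, a bHLH factor of early germ cells, read 4.08 FPKM against 18, 13.3 and 21.1 (ratio -1.90). Sycp3, a component of the synaptonemal complex, read 1.41 FPKM against 6.45, 4.32 and 6.62 (ratio -1.63). Tuba3a, a testis tubulin, read 2.80 FPKM against 34.8, 48.8 and 34.3 (ratio -3.23), though its near-identical copy Tuba3b leaves the value uncertain.

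Several germline genes were level or higher in replicate 1. Dnd1, an RNA-binding protein of primordial germ cells, read 9.48 FPKM against 10.7, 10.7 and 10.4 (ratio -0.15). Rec8, the meiotic cohesin, read 4.66 FPKM against 5.48, 4.38 and 3.60 (ratio -0.19), and Syce1 read 5.77 FPKM against 6.93, 7.78 and 9.53 (ratio -0.23). Their ratios were the smallest in size of the list. Rpl10l read 131 FPKM against 49.9, 66.7 and 65.2 (ratio 1.37), but shares sequence with Rpl10. Ddx4, a defining germ cell helicase chosen after its value was seen, was low and level at 2.38 FPKM against 2.35, 2.22 and 2.93. Replicate 1 was the lowest of all 10 libraries in 11 of the 15 genes, where 12.2% of the 8875 genes were. The list median stood at -1.48 relative to all genes, against a root mean square of 0.18 among the other 3 pairs. Over the alternatives it ran from -1.73 to -0.38, the last with no minimum, where the many listed genes near 0 FPKM entered.

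**Figure D4:**
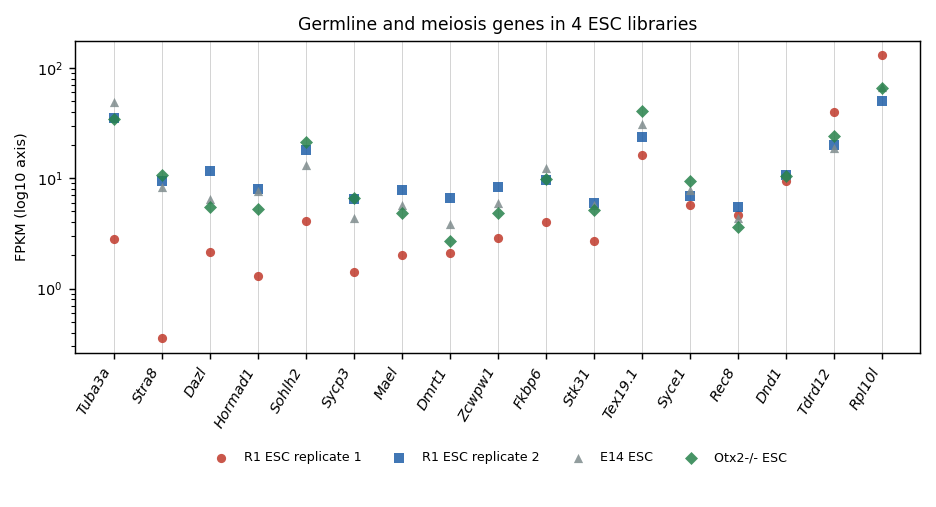
FPKM (log10 axis) of the 17 germline and meiosis genes with 5 FPKM in either R1 ESC replicate, in 4 ESC libraries, 1 point per library, ordered by ratio. Stra8 and Tuba3a have replicate 1 far below the other points, Dnd1 and Rec8 have all of the points together, and Rpl10l has replicate 1 on top.

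Markers of the rare 2-cell-like state were low in both replicates, where 0 reached 5 FPKM, while 3 reached it in E14 or Otx2-/- ESC. The 8 listed genes summed to 4.76 FPKM in replicate 1, 11.6 in replicate 2, 9.42 in E14 ESC and 40.0 in Otx2-/- ESC. The Zscan4 genes that make up most of the sum are near-identical copies and cannot be told apart with certainty. DNA methyltransferase Dnmt3b read 77.1 FPKM in replicate 1 against 28.6, 39.7 and 36.2 (ratio 1.40), while Dnmt3a read 9.63 FPKM against 10.5, 11.7 and 10.7 (ratio -0.11). Dnmt3b was thus higher where the germline genes were lower, and its part in their difference was not tested.

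Among stress pathways, some p53 targets were higher in replicate 1. Of 17 genes with 5 FPKM, 16 reached it in both replicates and Plk2 in replicate 1 alone. As deposited 5 of the 17 were at least 2-fold higher in replicate 1 and 0 in replicate 2. Of all 9149 genes 6.09% and 5.42% were. Taken by their level in E14 or Otx2-/- ESC, 16 genes entered, with a median ratio of 0.68. Past 2-fold were 4 of these towards replicate 1 and 0 towards replicate 2, where 5.21% and 4.87% of all 8875 genes were. Under each of the 3 other scalings 2 of the 17 passed 2-fold towards replicate 1, where 272 of 9155 genes did with median-ratio scaling, 341 of 9190 with quantile normalisation and 406 of 10150 with equal sums. Plk2, a polo-like kinase induced by p53, read 15.8 FPKM in replicate 1 against 4.77 in replicate 2, 4.69 in E14 ESC and 4.20 in Otx2-/- ESC (ratio 1.54). Phlda3, an Akt repressor, read 40.6 FPKM against 14.3, 25.4 and 19 (ratio 1.44). Trp53inp1 read 66.9 FPKM against 31.5, 28.8 and 28.8 (ratio 1.06). In each the other 3 lay below replicate 1. Aen, an apoptosis nuclease, read 87.0 FPKM against 42.4, 58.5 and 51.2 (ratio 1.02), Btg2 read 11.3 FPKM against 5.06, 5.59 and 5.75 (ratio 1.02), and Ccng1 read 104 FPKM against 52.5, 56.6 and 56.7 (ratio 0.98). Xpc, a DNA repair factor, was level at 8.77 FPKM against 8.68, 8.59 and 8.05 (ratio 0.01). Replicate 1 was above all of the other 3 in 14 of the 17, where 55.0% of the 9149 genes were. The list median was 0.51 relative to all genes, between 0.44 and 0.61 over the alternatives, against a root mean square of 0.049 among the other 3 pairs.

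Genes of Myc and ribosome biogenesis were higher in replicate 1 throughout. All 14 with 5 FPKM lay above the other 3 ESC libraries, where 55.0% of all 9149 genes did. As deposited 5 of them were past 2-fold towards replicate 1, where 6.09% of all genes were, and under each of the 3 other scalings 1 was. Ncl, nucleolin, read 671 FPKM in replicate 1 against 310 in replicate 2, 385 in E14 ESC and 349 in Otx2-/- ESC (ratio 1.11). Odc1, the rate-limiting enzyme of polyamine synthesis and a Myc target, read 516 FPKM against 248, 326 and 291 (ratio 1.05). Fbl, the nucleolar methyltransferase fibrillarin, read 560 FPKM against 273, 373 and 306 (ratio 1.03). Nolc1 read 140 FPKM against 68.5, 78.8 and 73.4 (ratio 1.02). The differences of these 4 were near 2-fold, and Myc itself, a member of this list as of the Wnt list, was the 1 gene well beyond it. Mycn read 45.5 FPKM against 30.4, 34.1 and 30.6 (ratio 0.56). The list median was 0.60 relative to all genes, against a root mean square of 0.061 among the other 3 pairs.

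Other stress responses differed less as lists. Relative to all genes the heat shock median was 0.33 over 10 genes, against a root mean square of 0.075 among the other 3 pairs of ESC libraries. The integrated stress response stood at -0.22 over 18 genes, against 0.043, and the unfolded protein response at -0.058 over 14, against 0.092. The first 2 medians thus also lay outside the spread among the other ESC libraries. Those 3 pairs differed less over all genes too, with 0.650% to 1.17% past 2-fold against 9.91% between the replicates, without small RNAs and genes listed at 0. Past 2-fold were 1 of 10 heat shock genes and 2 of 18 integrated stress response genes, near the 11.5% of all 9149 genes. As deposited, 9 integrated stress response genes had ratios above 0 and 9 below. Nupr1, a stress-induced chromatin protein, was an exception at 2.68 FPKM in replicate 1 against 26.5 in replicate 2, but with 7.03 in E14 ESC and 7.18 in Otx2-/- ESC (ratio -2.90), so replicate 2 was high. Sesn2, a sestrin, read 54.4 FPKM against 18.1, 26.5 and 23.8 (ratio 1.54). Xbp1, a factor of the unfolded protein response, read 21.4 FPKM against 46.2, 43.5 and 39.1 (ratio -1.08). Of the heat shock genes only Dnaja1, an Hsp40 co-chaperone, was past 2-fold, with 199 FPKM against 54.2, 65.5 and 61.9 (ratio 1.86). Mt1, a metallothionein, read 276 FPKM against 94.4, 229 and 170 (ratio 1.54), where replicate 2 was the library apart. Cell cycle genes had a median ratio of 0.19 over 21 genes, and cholesterol synthesis 0.26 over 18.

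**Figure D5:**
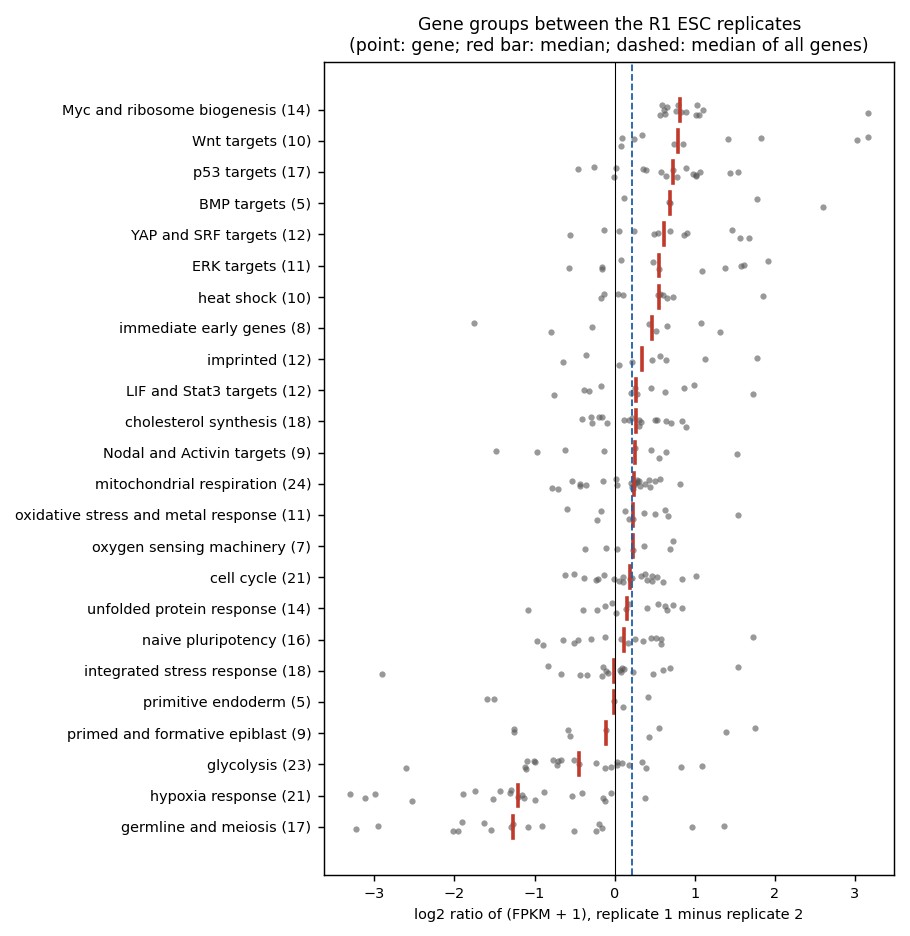
Ratio of log2(FPKM + 1), replicate 1 minus replicate 2 (x axis), of the genes of the 24 lists with at least 5 genes past 5 FPKM (y axis, number in brackets), 1 point per gene, without small RNAs and genes listed at 0. Red bars mark the medians over all genes of a list past 5 FPKM and the dashed line the median of all genes, 0.22. Germline, hypoxia and glycolysis medians lie left of it at -1.27, -1.21 and -0.44, and Myc and ribosome biogenesis, Wnt and p53 medians right of it at 0.81, 0.80 and 0.73.

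As deposited, the naive pluripotency list stood near all genes in its median, with some members that differed. The list median was 0.12 over 16 genes, with Gbx2 alone past 2-fold, and it was between -0.19 and -0.034 under the 3 other scalings, with 1 gene past 2-fold towards replicate 1 and 2 towards replicate 2 in each. Pecam1, an adhesion molecule of naive cells, read 20.4 FPKM in replicate 1 against 40.9, 31.7 and 32.6 (ratio -0.97). Tcl1, an Akt co-activator, read 64.5 FPKM against 120, 122 and 121 (ratio -0.89). Prdm14, which restrains FGF signalling and DNA methylation, read 14.5 FPKM against 23.2, 20.5 and 23.2 (ratio -0.65). These 3 were lower in replicate 1 than in any of the others. Of the primed and formative genes, Sox11 read 8.43 FPKM against 1.79, 2.47 and 1.88 (ratio 1.76), whereas Tead2 read 28.1 FPKM against 68.7, 64.0 and 69.3 (ratio -1.26) and Zic5 read 4.09 FPKM against 11.2, 9.63 and 12.5 (ratio -1.26). Of the 9 primed genes with 5 FPKM, 2 went each way past 2-fold. Of all 9149 genes 6.09% were past 2-fold towards replicate 1 and 5.42% towards replicate 2. The minimum itself shaped that split, since 2 of the 9, Sox11 included, reached it in replicate 1 alone and 1 in replicate 2 alone. Taken by their level in E14 or Otx2-/- ESC, 7 genes entered, with a median ratio of -0.56. Past 2-fold were 1 of these towards replicate 1 and 2 towards replicate 2, where 5.21% and 4.87% of all 8875 genes were.

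Single genes with the largest ratios added some outside the lists. Trh, the precursor of thyrotropin-releasing hormone, had the largest difference at 764 FPKM in replicate 1 against 27.0 in replicate 2, 68.9 in E14 ESC and 55.9 in Otx2-/- ESC (ratio 4.77). Its next highest level in the 10 libraries was 302 FPKM in Otx2-/- tetON-Otx2 ESC with doxycycline. Gja1, connexin 43, read 108 FPKM against 12.5, 28.9 and 16.8 (ratio 3.02), a level also found in E14 EpiLC (144 FPKM). Cd24a, a surface sialoglycoprotein, read 53.5 FPKM against 6.64, 18.2 and 10.6 (ratio 2.84). Tgm1, a transglutaminase, read 45.8 FPKM against 7.09, 20.7 and 25 (ratio 2.53), so replicate 2 was also low. Trpm1, a cation channel, read 23.4 FPKM against 1.79, 3.43 and 2.22 (ratio 3.13). Fgfbp1, a carrier of FGF ligands, read 8.71 FPKM against 0.576, 0.835 and 1.28 (ratio 2.62). Ctdsp2, a small phosphatase, read 507 FPKM against 57.6, 62.2 and 69.1 (ratio 3.11). Nkx6-2 read 32.0 FPKM against 2.06, 2.02 and 2.19 (ratio 3.43), for an entry whose locus at chr7:146575008-146768696 (mm9) is far longer than a homeobox gene of this kind, so the transcript counted there is uncertain.

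Towards replicate 2, Igfbp4, an IGF-binding protein, read 1.04 FPKM in replicate 1 against 21.6 in replicate 2, 6.30 in E14 ESC and 3.36 in Otx2-/- ESC (ratio -3.47), so replicate 2 stood high as well. Aurkc, the germline Aurora kinase, read 2.62 FPKM against 33.1, 34.6 and 34.8 (ratio -3.24). Prmt8, an arginine methyltransferase of neurons, read 2.10 FPKM against 26.4, 17.4 and 19.8 (ratio -3.15). In Aurkc and Prmt8 the other 3 ESC libraries agreed and both genes were low in the 2 R1 EpiLC libraries, Aurkc at 6.88 and 12.6 FPKM and Prmt8 at 2.67 and 2.47. Grin1, an NMDA receptor subunit, read 0.475 FPKM against 11.8, 4.81 and 8.08 (ratio -3.12), and Pacsin1, a neuronal endocytosis adaptor, read 0.508 FPKM against 10.4, 7.87 and 5.44 (ratio -2.92).

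Certain entries varied widely between libraries or were listed at 0 in some, and Actr5 fell into a low and a high group. Actr5, a subunit of the INO80 complex, read 127 FPKM in replicate 1 and 7.11 in replicate 2, and also 161 in E14 ESC and 7.58 in Otx2-/- ESC (ratio 3.99). Over all 10 libraries 7 were at or under 9.74 FPKM and the others at or over 110, regardless of cell state. Hipk3, a kinase, read 2.62 FPKM against 42.4, 53.9 and 22.3 (ratio -3.58). Over the 10 libraries it ranged up to 280 FPKM, in Otx2-/- tetON-Otx2 ESC with doxycycline. Itpr1, an inositol trisphosphate receptor, was listed at 0 in replicate 1 against 7.07, 5.47 and 4.26 FPKM, and at 0 in R1 EpiLC without activin A too. Rian, an imprinted noncoding RNA, was listed at 0 in replicate 1 against 58.7, 71.3 and 75.1 FPKM, while Meg3 of the same imprinted domain read 164 FPKM against 71.2, 103 and 94.8. A value listed at 0 can be a failed estimate, so no ratio is read from Itpr1 or Rian. Nnat, an imprinted proteolipid, read 16.1 FPKM against 3.97, 4.30 and 4.10 (ratio 1.78).

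The genes that differed between the replicates were also examined in libraries that had no share in choosing them, the E14 and Otx2-/- pairs of EpiLC and ESC. Of the 394 genes higher in replicate 2, 28.2% were at least 2-fold lower in E14 EpiLC than in E14 ESC, where 8.84% of all 8906 genes were. In the Otx2-/- pair 26.1% of the 394 genes were at least 2-fold lower in EpiLC, where 8.06% of the 8906 were. Of the 489 genes higher in replicate 1, 9% were at least 2-fold higher in E14 EpiLC than in ESC, where 3.42% of all genes were, and 10.6% against 3.63% in the Otx2-/- pair. Genes higher in replicate 1 were also lower in EpiLC more often than all genes, 12.7% in the E14 pair and 10.4% in the Otx2-/- pair. Likewise, 6.35% of the genes higher in replicate 2 were higher in EpiLC, in the E14 pair and in the Otx2-/- pair, more often than all genes. With small RNAs and genes listed at 0 kept, all 9149 genes gave 3.75% above and 9.21% below in the E14 pair, and 3.81% above and 8.34% below in the Otx2-/- pair. Genes that differed between the replicates were thus in general more often different between ESC and EpiLC. As deposited, the largest share was of genes higher in replicate 2 and lower in EpiLC. Members show both cases. Vegfa was lower in EpiLC, with 24.1 FPKM in E14 ESC and 4.99 in E14 EpiLC, whereas Egln3 read 13.9 FPKM in E14 ESC and 28.2 in E14 EpiLC, the opposite direction. Myc read 7.17 FPKM in E14 ESC and 32.7 in E14 EpiLC, near its level in replicate 1, while Sp5 read 3.15 FPKM in E14 ESC and 0.0826 in E14 EpiLC, away from it.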

How the data were processed

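RNA-seq libraries of 10 mouse cultures were used as deposited tables of FPKM per gene, 1 per library. The authors made the deposited FPKM values with TopHat and Cufflinks on mm9, per the submitters' processing notes. Libraries came from oligo-dT purified, fragmented RNA primed with random hexamers, per the labels' protocols, which describe no strand marking, so overlapping genes cannot be told apart. For versions, annotation and strand handling the sources used here give nothing. Each table had 23112 entries, of which 17 exact repeats were dropped and 228 entries sharing a symbol were summed, which gave 22867 genes. Ratios were differences of log2(FPKM + 1), with no further scaling, for genes with 5 FPKM in either R1 ESC replicate, and called past 2-fold. No test was run, since each side is 1 library. The counting script was checked on simulated data with known fold changes, as a check of the code alone. Promoter windows came from RefSeq on GRCm38.p6, used for sequence and not for the files' mm9 coordinates, which are printed 1-based. Computation used python 3.11.15, pandas 2.3.3 and numpy 2.4.6.

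Genes and the 30 lists (497 genes found) were chosen with earlier results of these data known. Named genes were the 12 with the largest ratio each way, leaving out small RNAs, genes listed at 0, predicted genes and multi-copy families, up to 6 members of a list with the largest ratio in size and up to 3 with the smallest, and Otx2. Further names (Kdm3a, Rpl10l, Ddx4, Slc2a1, Slc16a1, Socs3, Lgr5, T, Cdx2, Evx1, Smad6 and the marker genes) were chosen after their values were seen. Itpr1 is named by the rule although listed at 0, because its median over the libraries is just under 5 FPKM. Alternatives covered the pseudocount, the FPKM minimum, scaling, small RNAs, repeated symbols and each ESC library left out. The minimum set in E14 or Otx2-/- ESC, centring by GC content or length, and scaling joined with leaving out small RNAs were added after seeing the data.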

Additional observations from a re-analysis of the deposited data

How the results depend on the processing

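No paired analysis was possible because both libraries belong to 1 group and no other group has numbered replicates. Neither replicate can be left out of a comparison of 1 with 1. The genes higher in replicate 1 (557 in all) numbered 336 with a pseudocount of 5 FPKM, 272 with median-ratio scaling, 341 with quantile normalisation and 143 past 3-fold. Without small RNAs and genes listed at 0 these scalings gave 211 and 279. The genes higher in replicate 2 (496) numbered 257 with that pseudocount, 758 with no minimum, 770 with median-ratio scaling, 854 with equal sums of FPKM and 209 past 3-fold. The cause was not tested beyond the fewer or more genes that a threshold admits by construction.

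Both references lay nearer replicate 2 in 75.1% of genes with quantile normalisation, 83.8% without small RNAs and 68.0% with the tetON cells added, and nearer replicate 1 in 10.6% with a pseudocount of 5, 5.55% without small RNAs, 6.08% with the tetON cells and 6.60% with the minimum set in E14 or Otx2-/- ESC. The chromosome medians spanned 0.0040 with no minimum. Genes with replicate 1 apart (465 with small RNAs) numbered 231 with a pseudocount of 5, and 537 to 632 with 1 of the other libraries left out. Without small RNAs, replicate 2 was apart in 19 genes, E14 ESC in 5 and Otx2-/- ESC in 28, where all entries gave 59, 48 and 72. With 1 of the other libraries left out, these last counts were 86 to 118, 64 to 97 and 87 to 128, since fewer libraries must then be passed. With the tetON cells added Otx2-/- ESC was apart in 40.

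Shares in the EpiLC pairs moved as follows, all entries included. E14 EpiLC above ESC among genes higher in replicate 1 (8.80%) was 5.36% with a pseudocount of 5, 6.50% with a minimum of 10, 14% with median-ratio scaling, 13.8% with quantile normalisation, 13.3% with equal sums and 6.28% with the minimum in the references. E14 EpiLC below ESC (14.7%) was 18.5% with a pseudocount of 0.1 and 18% with median-ratio scaling. Among genes higher in replicate 2, E14 EpiLC above ESC (8.87%) was 11.8% with equal sums and 6.35% without small RNAs, and below ESC (26.4%) 22.2% with median-ratio scaling and 21.5% with equal sums. In the Otx2-/- pair, EpiLC above ESC among genes higher in replicate 1 (12.0%) was 19.9%, 18.5% and 16.0% with median-ratio, quantile and sum scaling, and below ESC (11%) 7.74% with a pseudocount of 5. Among genes higher in replicate 2, above (5.65%) was 2.33% with a pseudocount of 5, 3.18% with a minimum of 10 and 9.02% with equal sums, and below (25.6%) 21.8% with no minimum and 21.6% with median-ratio scaling.

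Of 285 list medians over 24 lists and 12 settings, 234 shifted from their main value by less than the root mean square among the other ESC libraries. This concerns the shift between settings and not the distance of a list from all genes. Of the list medians at least 0.5 from all genes, 0 changed sign. Lists that far apart numbered 6, and 5 to 8 over the settings. Depth limits genes near 5 FPKM most, and intervals cannot be given without counts.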

Other observations

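Basement membrane collagens were lower in replicate 1. Col4a1 read 4.96 FPKM in replicate 1 against 16.0 in replicate 2, 10.4 in E14 ESC and 8.25 in Otx2-/- ESC (ratio -1.51), and Col4a2, which is transcribed from the same bidirectional promoter, read 1.76 FPKM against 7.31, 4.52 and 4.37 (ratio -1.59). Lama1 and Sparc, which like the collagens are made in quantity by primitive endoderm, were level. Lama1 read 11.4 FPKM against 11.5, 13.8 and 13.4, and Sparc read 104 FPKM against 96.2, 115 and 101. No test was possible with 1 library on each side.

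Genes under the FPKM minimum held further differences, named after their values were seen. Evx1, a homeobox gene of the primitive streak, read 1.70 FPKM in replicate 1 against 0.246, 0.276 and 0.224 in the other 3 ESC libraries. Smad6, the inhibitory Smad of the BMP pathway, read 1.14 FPKM against 4.03, 6.58 and 4.45, the opposite direction to Id3 and Bmp4. Smc1b, the meiotic cohesin subunit, read 0.377 FPKM against 3.98, 1.63 and 0.712.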
